A study of Mus musculus with 2 samples.

Results

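The acute phase proteins described here were the products of 10 mouse genes, namely the serum amyloid A genes Saa1, Saa2, Saa3 and Saa4, the orosomucoids Orm1 and Orm2, haptoglobin (Hp), hemopexin (Hpx), C-reactive protein (Crp) and serum amyloid P (Apcs). They were chosen by gene symbol, and their probes were found through the RefSeq accession that the arrays give for each probe. All 10 were on the arrays, with 1 probe and 1 spot each, among 37074 gene names, and 9 of the 10 had a ratio between the groups, among 27119 names. Expression was compared in the prefrontal cortex (PFC), the front part of the cortex, of male mice of the strain C57Bl/6 N sea, either exposed to chronic mild stress (CMS) or not. CMS is a schedule of changing mild stressors used as a model of depression. The control group received no treatment beyond ordinary care and lived in groups of 3 to 5 mice per cage. The CMS group was kept 1 mouse to a cage and was stressed over 4 weeks, from an age of 9 to 10 weeks, and tissue was taken on the day after the last stressor. Housing differed together with stress, so their effects cannot be told apart. Whether the mice that gave RNA also underwent a tail suspension test is not clear from the methods, for either group. No allele, transgene or drug was used in either group. RNA was pooled within each group (7 mice per pool by the series' design text, 10 mice per group by the methods), and each pool was hybridized to 1 one-color Agilent array. There were therefore no replicates, no test between the groups was possible, and the number of arrays limits the precision of every value.

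Acute phase proteins are plasma proteins whose blood levels change within hours to days of infection or injury. Most are made by hepatocytes, where interleukin-6 and interleukin-1 switch on their genes through STAT3, C/EBP factors and NF-kB. Serum amyloid A proteins travel on high-density lipoprotein, orosomucoids carry small lipophilic molecules, haptoglobin and hemopexin bind free hemoglobin and heme, and Crp and Apcs are pentraxins that bind bacterial and cell debris. The brain is not a main site of their synthesis.

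The promoters of 5 members are printed so that members with high ratios (Orm2, Hpx) can be read beside members that did not pass 2-fold (Saa1, Saa2, Apcs). Each is the stretch of 250 bases before the RefSeq start in GRCm38.p6, read 5′ to 3′ on the strand of the gene, with capitals for each match to TTNNGNAA, a core recognized by C/EBP factors, on either strand. Saa1 lies at chr7:46742981-46743230 on the minus strand and Saa2 at chr7:46751583-46751832 on the plus strand, so that they point away from each other. Orm2 lies at chr4:63362199-63362448 on the plus strand, Hpx at chr7:105600117-105600366 on the minus strand and Apcs at chr1:172895055-172895304 on the minus strand.
Saa1: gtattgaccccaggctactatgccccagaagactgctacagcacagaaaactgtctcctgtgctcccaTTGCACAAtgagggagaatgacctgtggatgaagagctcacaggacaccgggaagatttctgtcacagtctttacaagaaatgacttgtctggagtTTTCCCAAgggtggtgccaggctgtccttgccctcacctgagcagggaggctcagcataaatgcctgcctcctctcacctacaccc
Saa2: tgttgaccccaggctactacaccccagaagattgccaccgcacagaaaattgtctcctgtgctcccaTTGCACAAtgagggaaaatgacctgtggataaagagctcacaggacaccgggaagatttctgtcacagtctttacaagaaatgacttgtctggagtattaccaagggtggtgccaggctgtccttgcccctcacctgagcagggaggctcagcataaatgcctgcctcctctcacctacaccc
Orm2: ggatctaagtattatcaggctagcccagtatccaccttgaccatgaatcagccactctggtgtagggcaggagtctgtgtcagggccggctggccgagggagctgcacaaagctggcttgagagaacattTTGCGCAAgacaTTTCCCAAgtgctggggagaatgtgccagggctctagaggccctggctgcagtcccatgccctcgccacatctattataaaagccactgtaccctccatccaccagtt
Hpx: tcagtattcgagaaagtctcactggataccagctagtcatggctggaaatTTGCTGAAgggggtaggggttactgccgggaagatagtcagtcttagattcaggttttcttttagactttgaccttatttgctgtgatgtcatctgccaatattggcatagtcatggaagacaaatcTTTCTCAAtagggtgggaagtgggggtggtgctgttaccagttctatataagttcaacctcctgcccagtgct
Apcs: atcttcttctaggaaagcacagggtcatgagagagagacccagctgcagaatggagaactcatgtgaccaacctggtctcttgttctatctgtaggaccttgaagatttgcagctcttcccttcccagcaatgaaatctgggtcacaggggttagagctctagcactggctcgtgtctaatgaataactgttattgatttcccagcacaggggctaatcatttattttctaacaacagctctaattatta

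Promoters of 8 of the 10 members were matched in the RefSeq table, all but Hp and Orm1. The C/EBP letters were present in 7 of these 8, against 36.8% of all 32851 promoters of the same length. Orm2 held them at 120 bases before the start, where they matched on both strands, and at 108 bases, and Hpx held them at 200 and 73 bases. The Saa1 and Saa2 promoters were identical at 94.8% of 251 aligned columns, while the other 27 pairs of members were identical at 43.5% to 50.2%. Both Saa promoters held the letters TTGCACAA, at 182 bases before the start in Saa1 and 183 in Saa2, and Saa1 held a second match at 86 bases. Saa3, with 4 matches, Saa4, with 2, and Crp, with 1, are not printed. Apcs was the member without the C/EBP letters and the only one of the 8 with TTCNNNGAA, read by STAT factors (7.02% of all promoters), and with CTGGGAA, an interleukin-6 response core (9.10%). It held the STAT letters at 244 bases and CTGGGAA at 129 and 52 bases before the start. None of the 8 held GGGANTTNC for NF-kB (3.54%) or CAAAGTCCA for HNF4 (0.384%), and TATAAA was found in Orm2 and Crp (12.4%). All were searched on both strands, and a match is a run of letters, not a bound site.

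Of the 9 members with a ratio, 6 exceeded 2-fold in the CMS pool and none was below 0.5 times, where 1.99% of the 27119 gene names with a ratio were higher and 0.59% were lower. Hp, Hpx, Orm1 and Orm2 were 6.33-fold to 7.76-fold higher, Saa4 and Crp were at least 6.24-fold and 2.27-fold higher, Saa1 and Saa2 were 1.48-fold and 1.88-fold higher, Apcs was 1.08-fold higher, and Saa3 was not well above background in either pool. The median log2 ratio of CMS over control was 2.64 over the 9 members and -0.03 over all names, whose 5th and 95th percentiles were -0.40 and 0.46. The members' median is the value of Saa4, known only as at least that high, so the median too is a lower limit. Among genes well above background on both arrays, 4 of 7 members were more than 2-fold higher, against 1.16% of 25433 names. In pooled tissue RNA, more cells that make a transcript and more transcript per cell cannot be told apart.

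Signals are the scanner's processed intensities, scaled here to a mean of 2500 per array. The scanner software also gives an error for each spot, shown after ± for signals and ratios, and this error covers the measurement within an array and not the difference between mice. Where a probe was dim (not well above background) on 1 array, it was set to the lowest signal that counted as well above background there (17.8 in the control pool, 17.6 in the CMS pool) or to its own signal if higher, and its fold is then a lower limit. For the 342 probes with repeated spots, log2 ratios varied between spots with an SD of 0.13. The arrays held 59305 spots of 55681 probes on 1 slide, with 65.2% of spots well above background in the control pool and 65.9% in the CMS pool, and no spot was saturated.

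**Figure D1:**
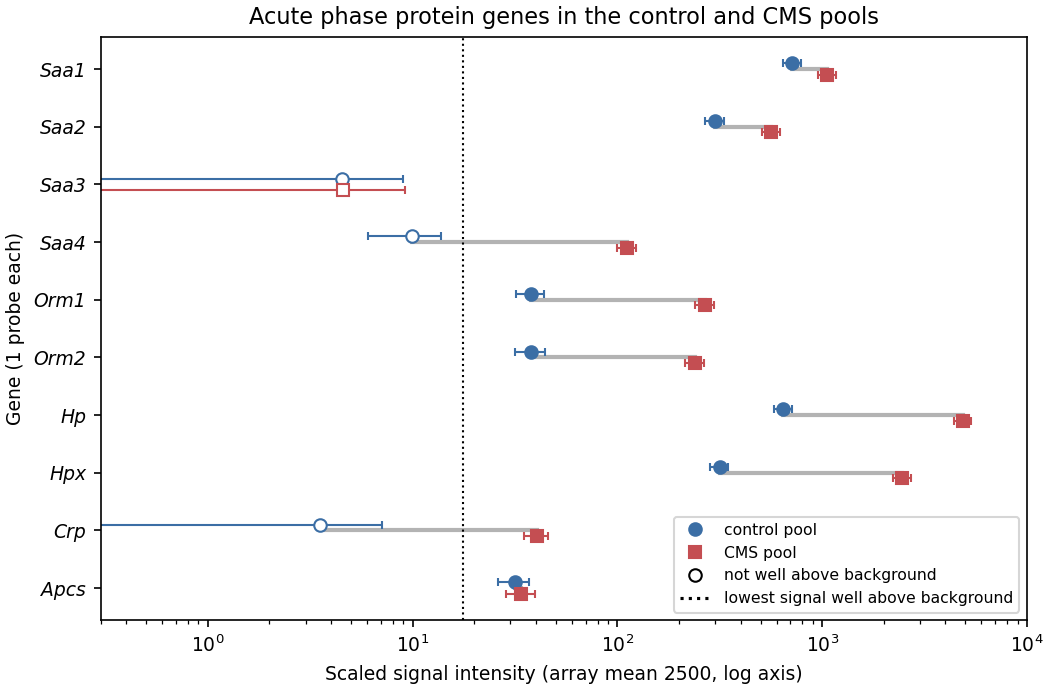
Scaled signal of each member in the control pool (circles) and the CMS pool (squares) on a log axis, with bars for the scanner's spot error (bars that reach the left edge extend to 0 or below) and open symbols for dim probes. Hp, Hpx, Orm1, Orm2, Saa4 and Crp lie far to the right in the CMS pool, Saa1 and Saa2 are separated by a smaller step, and the symbols of Saa3 and of Apcs overlap.

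Saa1 (NM_009117), an inducible, secreted serum amyloid A, had a scaled signal of 716 ± 71.7 in the control pool and 1060 ± 106 in the CMS pool. The probe was thus well above background in both groups, and the CMS pool was higher by a log2 ratio of 0.57 ± 0.20. Saa2 (NM_011314), its close relative on the same part of chromosome 7, had 299.6 ± 30.3 in the control pool and 564 ± 56.6 in the CMS pool, giving a log2 ratio of 0.91 ± 0.21. Neither inducible gene passed 2-fold. Their log2 ratios differed by 0.35, with a scanner error of 0.29 on the difference. Saa1 and Saa2 are near-identical genes, so each probe may also have bound the other's transcript, and the division of signal between them is uncertain.

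Saa3 (NM_011315), which is also made outside the liver, by macrophages and fat, had a scaled signal of 4.50 in the control pool and 4.57 in the CMS pool. Both were below the lowest signal well above background, so no ratio was taken. Saa4 (NM_011316), the constitutive liver form that changes little in the acute phase, had 9.88 ± 3.83 in the control pool, not well above background, and 111 ± 11.7 in the CMS pool. Saa4 was thus measured only in the CMS pool, and its signal there was at least 6.24-fold higher, or 11.2-fold by the measured signals. With normexp background correction and quantile normalization its log2 ratio was 1.38 in place of 2.64, still more than 2-fold. Within the same family and chromosome segment, the constitutive Saa4 had the highest ratio, Saa1 and Saa2 stayed below 2-fold and Saa3 could not be compared.

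Orm1 (NM_008768), an acid glycoprotein induced in hepatocytes by glucocorticoids and cytokines, had a scaled signal of 37.8 ± 5.92 in the control pool and 268 ± 27.1 in the CMS pool. Orm2 (NM_011016), its neighbor on chromosome 4, had 37.8 ± 6.23 in the control pool and 239 ± 24.4 in the CMS pool. Both control signals were near but above the background limit, and both genes were clearly apart between the pools, with log2 ratios of 2.82 ± 0.27 and 2.66 ± 0.28. The log2 ratio of Orm1 exceeded that of Orm2 by 0.16, less than its scanner error of 0.39, and the probes of these related genes may share transcripts. With normexp background correction and quantile normalization, the log2 ratio fell to 1.65 for Orm1 and 1.47 for Orm2, still more than 2-fold.

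Hp (NM_017370), the plasma protein that binds hemoglobin released from red cells, had a scaled signal of 645 ± 64.6 in the control pool and 4871 ± 487 in the CMS pool. Its log2 ratio was 2.92 ± 0.20, a fold of 7.55. Hpx (NM_017371), which carries free heme to the liver, had 316.5 ± 31.9 in the control pool and 2456 ± 246 in the CMS pool. Its log2 ratio was 2.96 ± 0.20, a fold of 7.76 and the highest of the 7 members whose ratio is not a lower limit. Hp lies on chromosome 8 and Hpx on chromosome 7, and their log2 ratios differed by 0.04, with a scanner error of 0.29.

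Crp (NM_007768), a minor acute phase protein in the mouse although a major one in humans, had a scaled signal of 3.52 ± 3.55 in the control pool, not well above background, and 40.4 ± 5.34 in the CMS pool. Crp was thus detected in the CMS pool alone and was at least 2.27-fold higher there, or 11.5-fold by the measured signals. With normexp and quantile normalization its log2 ratio fell from 1.18 to 0.61, below 2-fold. Apcs (NM_011318), the main acute phase pentraxin of the mouse and a neighbor of Crp on chromosome 1, had 31.5 ± 5.40 in the control pool and 34.0 ± 5.52 in the CMS pool. These signals overlapped within their scanner errors, and the log2 ratio was 0.11 ± 0.34.

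**Figure D2:**
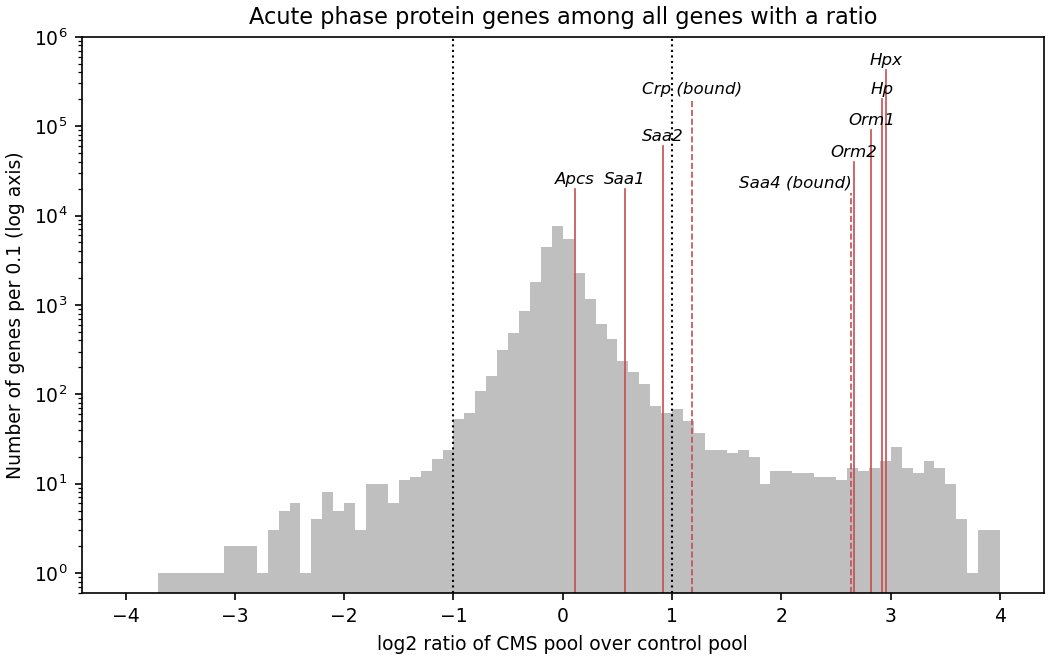
Log2 ratio of the CMS pool over the control pool for the 27119 gene names with a ratio (gray histogram, number of names per 0.1 on a log axis, values beyond 4 drawn at 4) with a line for each of the 9 members, dashed where it is a lower limit. Dotted lines mark 2-fold, and Hpx, Hp, Orm1, Orm2 and Saa4 lie in the sparse right tail while Apcs lies within the central peak.

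Ordered by log2 ratio, the members ran from Hpx, Hp, Orm1, Orm2 and Saa4 down to Crp, Saa2, Saa1 and Apcs. Hpx ranked at position 117 from the highest of the 27119 names, Hp at 123, Orm1 at 138, Orm2 at 161 and Saa4, by its limit, at 165. The ranks of the others were 428 for Crp, also by its limit, 589 for Saa2, 1045 for Saa1 and 5259 for Apcs. Saa4 and Crp stand in this order by their limits, and their measured log2 ratios were 3.49 and 3.52. The other members with high ratios could not be ordered, since the log2 ratio of Hp exceeded that of Orm1 by 0.09 (scanner error 0.34) and that of Hpx exceeded that of Orm2 by 0.29 (scanner error 0.35). By contrast, the log2 ratio of Orm2 exceeded that of Saa2 by 1.75, with a scanner error of 0.35, and that of Hp exceeded that of Saa2 by 2.0, with an error of 0.29. Saa1 exceeded Apcs by 0.45, with an error of 0.40. These errors describe spots and not mice.

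The list of other positive acute phase proteins, a class that rises in inflammation, also divided into genes with high and with small ratios. Whether each listed gene rises in mouse liver was not examined. Of 25 listed genes, 21 had a ratio, 12 of them more than 2-fold higher and none below 0.5 times, with a median log2 ratio of 1.11. The fibrinogen chains Fgb and Fgg, which form clots, went from scaled signals of 422 and 512 in the control pool to 3967 and 5066 in the CMS pool, giving log2 ratios of 3.23 and 3.31. The protease inhibitors Serpina1a, Serpina1d and Serpinf2 had log2 ratios of 3.07, 3.22 and 2.68, with Serpina1a and Serpina1d being near-identical genes that may share signal. The complement genes Cfb and C3 had log2 ratios of 3.01 and 2.85, and a second C3 probe gave 1.75. The iron hormone hepcidin (Hamp) had 2.80, Itih4 2.53, Fgl1 2.49 (1.48 on its second probe), Fga 1.11 (2.77 as a lower limit on its second probe) and the copper carrier Cp 1.01. Cp fell below 2-fold with scaling to the median (0.98), and both Cp and Fga did with no scaling (0.84 and 0.94) and with normexp and quantile normalization (0.84 and 0.42), which left 11, 10 and 10 genes of the list past 2-fold.

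The 9 that did not pass 2-fold had log2 ratios from -0.25 to 0.86. The lipocalin Lcn2 had a scaled signal of 186 in the control pool and 207 in the CMS pool, giving a log2 ratio of 0.15. Serpina3n, made by reactive astrocytes as well as liver, had a log2 ratio of 0.33, C4b 0.41, Lbp 0.13, and the metallothioneins Mt1 and Mt2 had -0.25 and -0.20. Lrg1 had 0.86, Itih2 0.63 and Itih3 0.28. Orm3, Steap4 and A2m were dim on both arrays.

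Negative acute phase proteins, carriers whose liver production falls in inflammation, were higher in the CMS pool as well. All 8 had a ratio, 6 were more than 2-fold higher and none was lower. Their median log2 ratio was 3.02, with no limits among them, beside 2.64 for the members, which is the lower limit of Saa4. Albumin (Alb) had scaled signals of 1509 in the control pool and 17486 in the CMS pool, giving a log2 ratio of 3.53. Apoa1, Ttr and Ahsg had log2 ratios of 3.40, 3.38 and 3.38, and Serpina6, which carries corticosterone, and Fetub had 2.67 and 2.56. The transferrin gene Trf, which oligodendrocytes also express, had 0.69, and the retinol carrier Rbp4 had 0.95.

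The cytokines and receptors that drive the acute phase had ratios centered near 0. Of 18 listed genes, 13 had a ratio, with a median log2 ratio of -0.04, and Il6, Il1a, Il1rn, Tnf and Il22ra1 were dim in both pools. Il1b, the other main inducer, had a scaled signal of 28.7 in the control pool and 33.0 in the CMS pool, giving a log2 ratio of 0.20. The gene for the interleukin-6 receptor chain Il6ra had a log2 ratio of 0.01, and Il6st, the shared signal chain, had -0.15. Cntf alone passed 2-fold, with a log2 ratio of 1.14 on the probe used and 0.08 on its second probe. It did not pass with no scaling (0.96), with normexp and quantile normalization (0.08) or as the mean of its probes (0.61). A probe for another Lifr transcript gave 1.84, where the Lifr probe used gave 0.13.

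Among 20 signalling genes and transcription factors of the response, 18 had a ratio, 1 was more than 2-fold higher and 1 was below 0.5 times. Their median log2 ratio was -0.10. Socs3, a target and inhibitor of STAT3 signalling, had a scaled signal of 378 in the control pool and 267 in the CMS pool, giving a log2 ratio of -0.50, and Nfkbia and Nfkbiz, which NF-kB induces, had log2 ratios of -0.33 and -0.72. Of the same list, Pim1 had -0.09 and Bcl3 was higher in the CMS pool, with 0.37. Stat3 had -0.10, Cebpb 0.30, Cebpd -0.37 and the glucocorticoid receptor gene Nr3c1 -0.03. The gene above 2-fold was Hnf4a, a transcription factor that maintains hepatocyte genes, with 45.1 in the control pool and 529 in the CMS pool, giving a log2 ratio of 3.55. The gene below 0.5 times was the activity-induced Fos, with 1502 and 574, a log2 ratio of -1.39.

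Genes of heme and hemoglobin handling showed small ratios, most of them acting after haptoglobin and hemopexin have bound their cargo. For 9 of the 10 listed genes a ratio was obtained, none passed 2-fold in either direction, and log2 ratios lay between -0.14 and 0.15. The hemopexin receptor Lrp1 had a log2 ratio of -0.10, the ferritin chains Fth1 and Ftl1 had 0.05 and 0.06, and Fech, which makes heme, had -0.11. Cd163, the haptoglobin-hemoglobin receptor of macrophages, was dim on both arrays. Of 12 receptors for serum amyloid A and C-reactive protein, 9 had a ratio and none passed 2-fold, with a median log2 ratio of 0.00. Fcer1g and Scarb1 had log2 ratios of 0.07 and -0.12, and the lowest was Tlr4 at -0.99, an upper limit because the probe was dim in the CMS pool. Tlr4 passed below 0.5 times with scaling to the median (-1.02), with quantile normalization (-1.03) and with no scaling (-1.17). Fpr2, Cd36 and Ager were dim on both arrays.

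**Figure D3:**
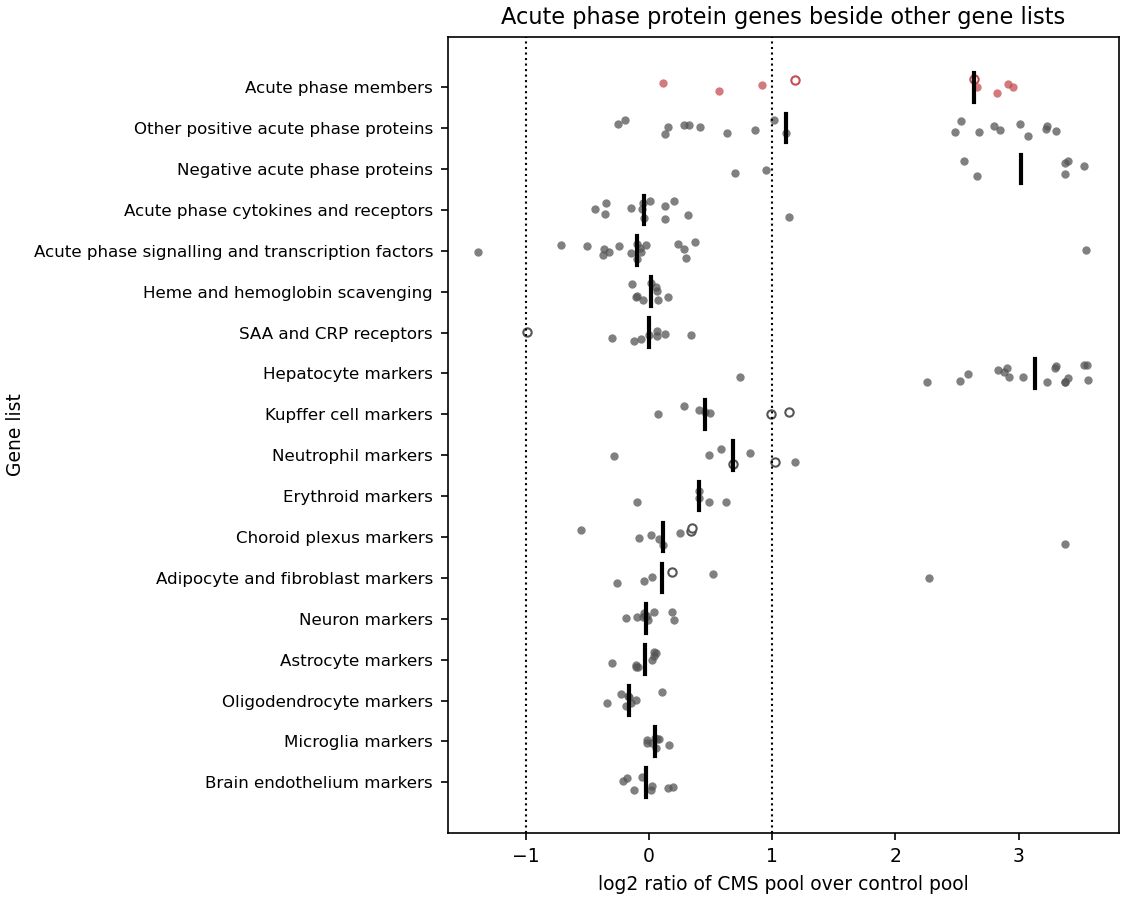
Log2 ratio of the CMS pool over the control pool for the members and for each other gene list (1 point per gene, open where the value is a limit, vertical bar for the list median, dotted lines at 2-fold). The members (red) and both other acute phase lists have genes near 3, as the hepatocyte markers do, while the cytokine, signalling, receptor and brain cell lists are centered near 0.

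The labelled tissue and other cell types were checked through marker lists. All 10 neuron markers were well above background in both pools, and their median log2 ratio was -0.02, with summed scaled signals of 233747 in the control pool and 229360 in the CMS pool. Astrocyte, oligodendrocyte, microglia and brain endothelium lists held 8 genes each, none passed 2-fold, and their medians were -0.03, -0.17, 0.05 and -0.02. Hepatocyte markers moved with the members. All 18 were well above background in both pools, none was at 0, 17 exceeded 2-fold in the CMS pool, and their summed scaled signal was 7589 in the control pool and 67292 in the CMS pool. Their median log2 ratio was 3.13, with Tat lowest at 0.74, Pck1 highest at 3.57 and Cps1 next to lowest at 2.26. The log2 ratios of Hpx, Hp, Orm1 and Orm2 and the limit of Saa4 lay between Cps1 and Pck1, those of Saa2 and the limit of Crp between Tat and Cps1, and those of Saa1 and Apcs below Tat. Fgb of the positive list and Ahsg, Alb, Apoa1 and Ttr of the negative list are also hepatocyte markers. The part of these cells' transcripts in the members' ratios was not tested.

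Markers of liver macrophages and of blood cells had lower list medians, although some of their values are limits. Of 8 Kupffer cell markers, 7 had a ratio and Clec4f, at least 2.20-fold higher, passed 2-fold, with a list median of 0.45 and summed signals of 711 in the control pool and 891 in the CMS pool. Slc40a1, also on the heme list, was the brightest of them, and without it the sums were 374 and 537. Clec4f and Vsig4 were dim in the control pool, where their measured signals were 6.16 and 5.70, against 39.2 and 35.3 in the CMS pool. Clec4f did not pass with no scaling (0.96) or with normexp and quantile normalization (0.33), and Vsig4, at 0.99 as a limit, passed with scaling to the 75th percentile (1.01). Of 10 neutrophil markers, 7 had a ratio and S100a9, with a log2 ratio of 1.18, and Ltf, with at least 1.02, passed, with a median of 0.68 and sums of 3574 and 3804. Elane held most of that sum and had a log2 ratio of -0.29, and without it the sums were 776 and 1513. Ltf did not pass with scaling to the median (0.99), quantile normalization (0.99), no scaling (0.85) or normexp and quantile normalization (0.34). Ngp, at 0.68 as a limit, passed with no limit for dim probes (1.96). The neutrophil markers past 2-fold then numbered 3, and 4 with no filter on dim probes. Of 8 erythroid markers, 5 had a ratio and none passed, with a median of 0.41 and sums of 146221 and 178014. Choroid plexus markers had a median of 0.11 over 9 genes, Ttr alone passing, and adipocyte and fibroblast markers a median of 0.11 over 6, Cfd alone passing with 2.27 (0.89 with normexp and quantile normalization). The part of these cells in the members' ratios was not tested.

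**Figure D4:**
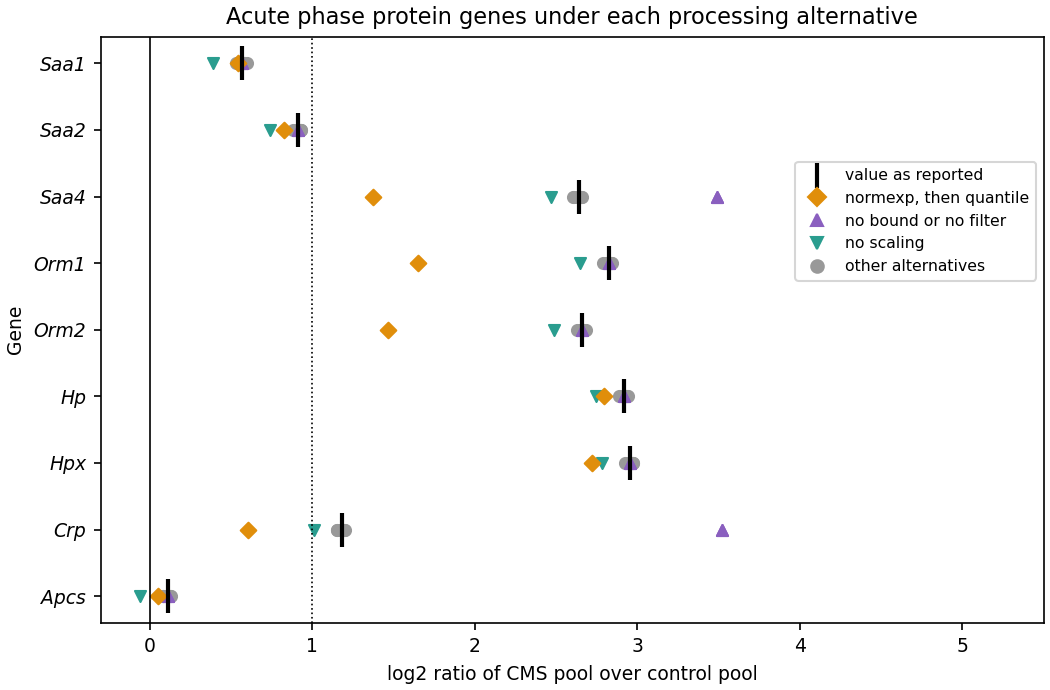
Log2 ratio of the CMS pool over the control pool for each of the 9 members with a ratio, as reported (black bar) and under each alternative processing (symbols), with the dotted line at 2-fold. Hp and Hpx stay between 2.72 and 2.98, Orm1, Orm2, Saa4 and Crp are lower with normexp and quantile normalization, and Saa4 and Crp are higher when no limit is set for dim probes.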

How the data were processed

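Total RNA of the PFC was pooled within each group and measured on 1 array per group. The authors deposited the scanner output of each array, made with Agilent Feature Extraction 10.10.1.1 per the labels, as signal intensities with background and spatial trend removed, linear and unscaled, with flags of 0 or 1 for background, saturation and outliers. The authors' second table holds these intensities multiplied by a constant for each array (1.80 for control and 2.05 for CMS against the scanner values), with a mean of 2500 over the spots between the lowest and the highest 2%. Its column medians were 148.91 and 152.67, and it holds linear values without centring of genes.

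From the processed intensities, control spots and outlier spots (130 in the control pool, 133 in the CMS pool) were left out and spots of 1 probe were averaged. The background flag had to be positive for a share of at least 0.5 of a probe's spots. Arrays were scaled to a mean of 2500, limits were set for dim probes, and the log2 ratio was taken, with the probe of highest mean log2 signal standing for a gene. Before scaling, the mean over spots, outlier spots included, was 2946 for the control pool and 2611 for the CMS pool. The mean over probes, which set the scaling, was 2929 for the control pool and 2597 for the CMS pool. Accessions were named without versions through the RefSeq table of GRCm38.p6, which gave 30740 of 59305 spots a symbol, and no array coordinates were used. The code that makes the calls was run on simulated data with changes well past 2-fold and no dim probes. That run does not bear on genes near 2-fold, on limits for dim probes or on differences between mice. Members and gene lists were chosen with earlier results of these data known. Named genes are the members, list genes past 2-fold and, for lists with fewer than 2 of these, the brightest, and further list genes were named after their values were seen. The alternatives were other scalings, none, quantile normalization, normexp (offset 50) with quantile normalization, the deposited table, other treatments of dim probes and outlier spots, and the mean of all probes. Python 3.11.15, numpy 2.4.6, pandas 2.3.3, matplotlib 3.10.9, R 4.3.3 and limma 3.58.1 were used. Behavioral, protein and serum data were not analysed here.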

Additional observations from a re-analysis of the deposited data

How the results depend on the processing

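No paired analysis was possible because each group had 1 array, and for the same reason no replicate could be left out. Of the 13 alternatives, 12 kept at least 5 of the members more than 2-fold higher, and the count was 4 when probes dim on 1 array were left out too, which leaves out Saa4 and Crp. No value past 2-fold changed direction. The median log2 ratio of the members was 2.64 as reported, 2.47 with no scaling, 1.38 with normexp and quantile normalization, 2.82 with no limit for dim probes and 2.74 with no filter on them. Of all gene names, 539 were higher and 160 lower as reported. These counts were 434 and 256 with no scaling, 265 and 38 with normexp and quantile normalization, 775 and 315 with no limit for dim probes, 294 and 44 without probes dim on 1 array, and 1493 and 1069 with no filter. No scaling also moved the median log2 ratio of all names by -0.17 and that of Apcs to -0.06. The scanner tables used here hold median spot intensities, so normexp was run on those. Of the log2 ratios of the members under the alternatives, 97 stayed within 0.13 (the SD between repeated spots) of the reported value and 18 did not. The median signal was 3.64 times the background limit in the control pool and 3.76 times in the CMS pool. Orm1, Orm2 and Apcs, near that limit in the control pool, and Saa4 and Crp, below it there, are the least certain.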

Other observations

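Genes next to the members on the chromosomes were examined after other values had been seen. For each member or cluster, the 3 nearest coding genes on either side, dim on neither array, were taken from the RefSeq order, which gave 30 distinct genes. Of these, 1 exceeded 2-fold in the CMS pool and none was below 0.5 times, and their median log2 ratio was -0.02. Around the Saa cluster, Saal1 had a log2 ratio of 0.06, Hps5 -0.07 and Ldha 0.03. Beside Hp, Txnl4b had -0.02 and Dhodh -0.08, and beside Hpx, Apbb1 had -0.10 and Trim3 0.02. The exception was Ambp near Orm1 and Orm2, a hepatocyte gene for the precursor of another plasma glycoprotein, with scaled signals of 756 in the control pool and 6190 in the CMS pool and a log2 ratio of 3.03.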
